A study of Mus musculus with 8 samples.

Results

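The genes described here are named for the proteins of the mouse mitochondrial ribosome. They were taken as the probe sets whose single gene symbol in the platform annotation begins with Mrpl or Mrps followed by a number. This rule found 76 genes, 47 with a large-subunit symbol (Mrpl) and 29 with a small-subunit symbol (Mrps), with 156 probe sets. By where the protein sits, 49 belong to the large and 26 to the small subunit, and 1, Mrps36, is not a ribosome protein. Mrps36 is kept in the counts because the rule goes by symbol. Each gene was represented by its brightest probe set, the one with the highest mean log2 level. All 76 passed the filter on low values, and none lay below the filter level on any array, among 13341 tested genes and 18193 genes with a probe set of 1 symbol.

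Sorted cells of the mouse limb bud at E10.5, an embryonic stage early in limb outgrowth, were compared by expression array. ZPA cells were sorted as GFP-positive, and non-ZPA cells, everything else in the limb, as GFP-negative. All embryos of both groups were heterozygous for the Shhgfpcre allele, which places GFP and Cre at Sonic hedgehog (Shh), the signal made by the zone of polarizing activity (ZPA) at the posterior margin of the bud. Both groups therefore carried the same altered Shh allele, and neither was wild type. ZPA replicates 1 and 2 held the same values within 0.5 intensity units and were counted as 1 array (ZPA array 1+2), which left 3 ZPA arrays and 4 non-ZPA arrays.

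The mitochondrial ribosome translates the few proteins that mitochondrial DNA encodes, all of them subunits of the respiratory chain and the ATP synthase. Its RNAs are made inside the mitochondrion, whereas all of its proteins are encoded in the nucleus, made on cytosolic ribosomes and imported. About as many of its proteins were gained in the course of evolution as have a counterpart in the bacterial ribosome. The roles given below come mainly from structures of human and other mammalian mitochondrial ribosomes.

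Values are the authors' signal intensities on a linear scale, 1 per probe set and array, and the number of arrays limits their precision. Shh, which checks the sort, had 6226, 12149 and 11191 on ZPA arrays 1+2, 3 and 4, against 319, 203, 869 and 1085 on non-ZPA arrays 1 to 4. Its groups did not overlap. The arrays fell into 2 runs by the numbers in their titles and by scan day. Run 1 held ZPA array 1+2 with non-ZPA arrays 1 and 2, and run 2 held ZPA arrays 3 and 4 with non-ZPA arrays 3 and 4. ZPA array 4 had an Actb 3' to 5' signal ratio of 21.6, against 3.28 and 3.18 on the other ZPA arrays and 2.04 to 5.37 on the non-ZPA arrays. The Gapdh 3' to 5' ratio was 1.21, 2.56 and 9.02 on ZPA arrays 1+2, 3 and 4, against 3.67 to 5.77 on the non-ZPA arrays. The mean log2 signal of the spike-in probe sets was 14.6, 11.9 and 13.9 on ZPA arrays 1+2, 3 and 4. On the non-ZPA arrays it was 11.04 to 11.6, so that ZPA array 1+2 stood farthest from them.

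The cell type markers of the sorted fractions were not equal. Limb mesenchyme markers summed to 16641 to 24086 on the ZPA arrays and 13542 to 18059 on the non-ZPA arrays. Of these 5 markers 4 were higher, 1 was lower and 0 passed the test. The lower one, Prrx1, was the brightest, with means of 6036 in ZPA and 8606 in non-ZPA cells. Surface ectoderm markers summed to 745.7 to 1716 on the ZPA arrays and 3278 to 6816 on the non-ZPA arrays, with all 8 lower and 2 past the test. Muscle precursor markers summed to 156 to 338 on the ZPA arrays and 867 to 3054 on the non-ZPA arrays, with all 4 tested lower and 3 past the test. Primitive erythroid markers summed to 18530 to 58363 on the ZPA arrays and 37461 to 54304 on the non-ZPA arrays, with 6 of 7 lower and 2 past the test. Endothelial markers summed to 287 to 388 on the ZPA arrays and 297 to 1171 on the non-ZPA arrays, and 0 of 3 passed. No marker value was 0. The part of these cells, of the spike-in signal and of the Actb and Gapdh ratios in the results below was not tested. In bulk samples, fewer cells of a type and less RNA per cell cannot be told apart.

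Most mitochondrial ribosome genes had a higher mean in ZPA cells, by modest amounts, and few passed the test. In limma with Benjamini-Hochberg adjustment over all genes, Mrpl47 and Mrpl43 rose in ZPA cells and 0 of the 76 genes fell, at an adjusted p threshold of 0.05. Over all tested genes, 0.427% rose and 2.02% fell, 2.44% in all. The median log2 fold change, ZPA over non-ZPA on log2(intensity + 16), was 0.41 for the 76 genes, with quartiles of 0.02 and 0.68. Over all tested genes this median was -0.0037. The change was positive for 57 genes (75%) and negative for 19, against 49.7% positive over all tested genes. Above their own non-ZPA mean lay 32, 70 and 61 of the 76 genes on ZPA arrays 1+2, 3 and 4. Over the 13341 tested genes these counts were 6707, 6370 and 7056. For 20 genes every ZPA array lay above every non-ZPA array (26.3%, against 7.77% of all tested genes), and for 2 genes, Mrpl50 and Mrps33, every ZPA array lay below (2.63%, against 10.6%). At an unadjusted p under 0.05, 20 genes were higher and 2 lower, against 7.58% and 11.7% of all tested genes.

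**Figure D1:**
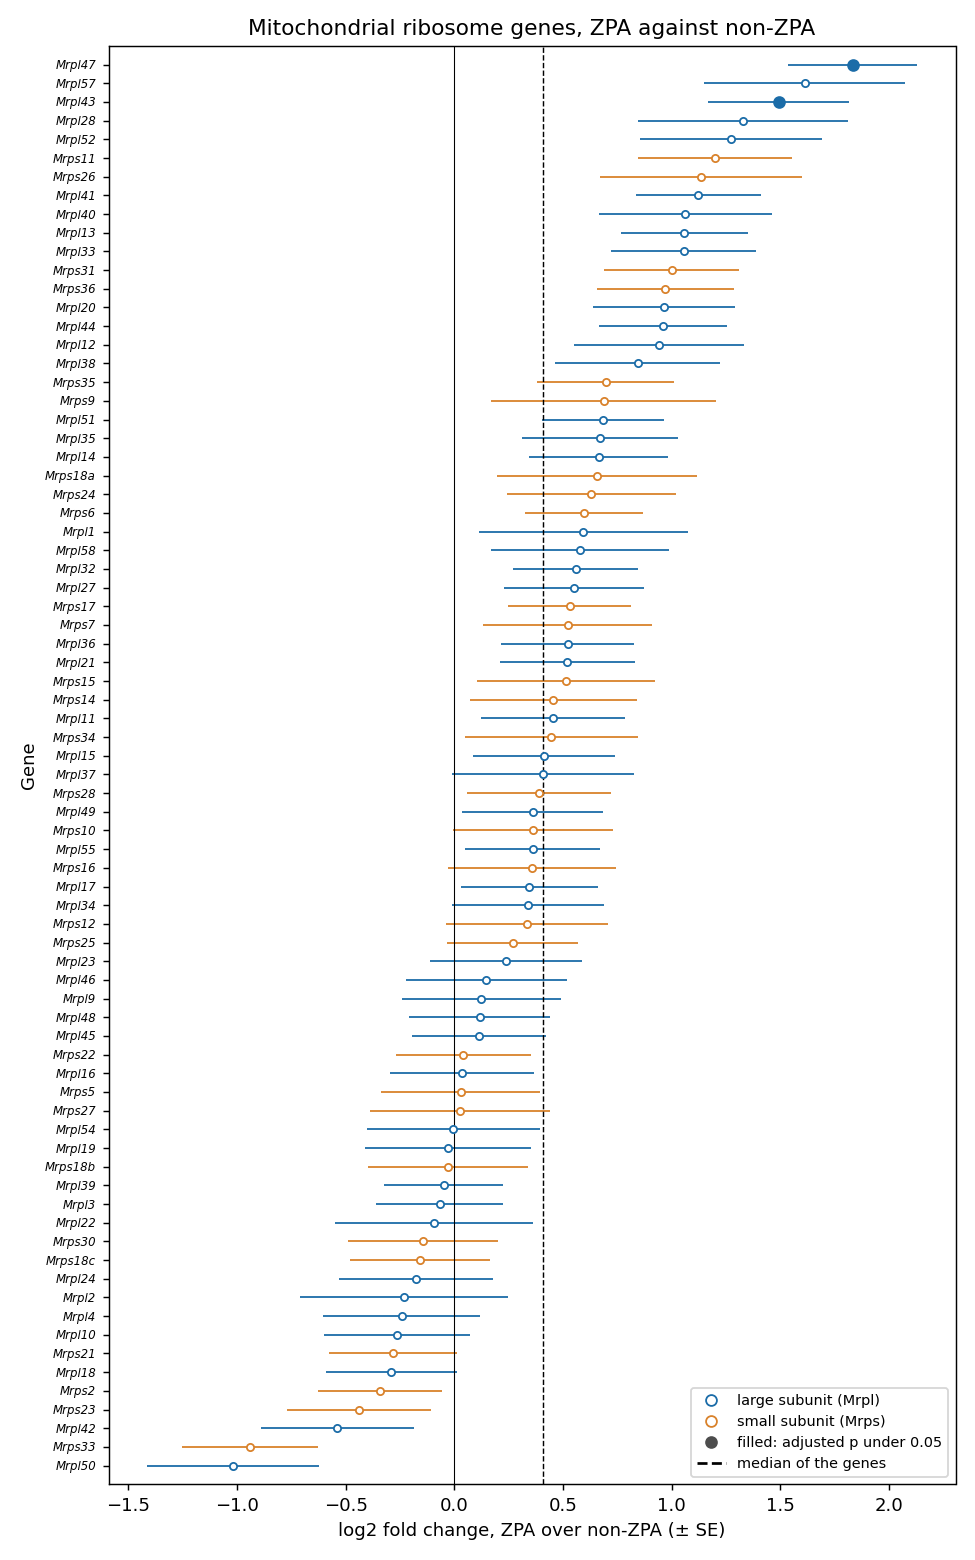
The log2 fold change of each of the 76 genes, ZPA over non-ZPA, on the horizontal axis, with bars for the standard error, blue for the large and orange for the small subunit. The median, at 0.41, is the dashed line, and the filled points, Mrpl47 and Mrpl43, are those that passed the test.

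The count of called genes rested on few arrays. Without ZPA array 1+2, 23 genes were called higher and 1, Mrpl50, lower, where 5.17% and 7.76% of all tested genes were called. Without any other single array the count higher was 1, Mrpl47 each time, given here without the share over all tested genes. In run 2 alone 5 genes were called higher and 0 lower, where 0.914% and 1.79% of all tested genes were called. Run 1 has 1 distinct ZPA array, whose spread would have to be taken from 2 non-ZPA arrays, so its calls are not read here.

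Mrpl47 encodes a large-subunit protein near the exit of the nascent peptide tunnel, the counterpart of bacterial protein L29. Its intensity was 2153, 2591 and 3203 on ZPA arrays 1+2, 3 and 4, against 807, 662, 629.6 and 809 on non-ZPA arrays 1 to 4. Every ZPA array was above every non-ZPA array by a wide margin. The means were 2649 ± 527 in ZPA cells (SD, n = 3) and 727 ± 94.5 in non-ZPA cells (SD, n = 4). The log2 fold change was 1.83 ± 0.30 (SE), a 3.56-fold rise with a limma adjusted p of 0.00821. The difference was 1.54 in run 1 and 1.99 in run 2. The gene was called in all 22 settings tried, with limma adjusted p from 0.000919 to 0.0441. These settings include run 1 alone, whose calls are not read here. They also include ZPA replicates 1 and 2 counted separately, which counts the same values more than once. Mrpl47 has 1 tested probe set.

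Mrpl43 encodes a protein of the large subunit that bacterial ribosomes lack. Its intensity was 1913, 2778 and 3956 on ZPA arrays 1+2, 3 and 4, against 1100, 1075, 886 and 849 on non-ZPA arrays 1 to 4. The groups did not overlap, and ZPA array 1+2 was the nearest to the non-ZPA arrays. The means were 2882 ± 1026 in ZPA cells (SD, n = 3) and 977.5 ± 128 in non-ZPA cells (SD, n = 4). The log2 fold change was 1.49 ± 0.32 (SE), a 2.81-fold rise with a limma adjusted p of 0.0333, and was 0.81 in run 1 and 1.91 in run 2. The call ended when any array other than ZPA array 1+2 was left out, with adjusted p from 0.0623 to 0.125. It also ended without the intensity trend (0.0749) and with a replicate block that takes the shared array as replicate 1 (0.0851). The call was made in 13 of 22 settings, with run 1 alone, which is not read here, among those without it.

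The promoters of these genes are shown because nuclear genes for mitochondrial proteins are known to be read through promoters rich in sites for NRF1, ETS-family factors and YY1. Below are the windows of both called genes and of Mrps11, the small-subunit gene with the highest log2 fold change. Each runs from 250 bases before to 50 bases after the annotated start, 5' to 3' on the gene's strand, from RefSeq on build GRCm38.p6. The words searched, on both strands, were the NRF1 consensus, a GC-rich word with 1 free base that is given here by name only, CCGGAAG for ETS factors (CTTCCGG) and ATGGCGG for YY1 (CCGCCAT), and matches are in capitals.
Mrpl47, chr3:32736706-32737005, minus strand: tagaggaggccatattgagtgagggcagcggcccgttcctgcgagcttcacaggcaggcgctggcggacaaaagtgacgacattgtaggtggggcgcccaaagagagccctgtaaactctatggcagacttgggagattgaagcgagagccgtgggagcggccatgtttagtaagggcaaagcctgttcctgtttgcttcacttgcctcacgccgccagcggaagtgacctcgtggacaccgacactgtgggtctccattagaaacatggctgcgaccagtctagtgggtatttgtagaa
Mrpl43, chr19:45006393-45006692, minus strand: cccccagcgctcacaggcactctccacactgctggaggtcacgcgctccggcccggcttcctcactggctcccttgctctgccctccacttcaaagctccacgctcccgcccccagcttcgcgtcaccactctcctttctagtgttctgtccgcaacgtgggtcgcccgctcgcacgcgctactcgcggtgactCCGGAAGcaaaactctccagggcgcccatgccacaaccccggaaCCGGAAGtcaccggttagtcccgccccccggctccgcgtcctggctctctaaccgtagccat
Mrps11, chr7:78782881-78783180, plus strand: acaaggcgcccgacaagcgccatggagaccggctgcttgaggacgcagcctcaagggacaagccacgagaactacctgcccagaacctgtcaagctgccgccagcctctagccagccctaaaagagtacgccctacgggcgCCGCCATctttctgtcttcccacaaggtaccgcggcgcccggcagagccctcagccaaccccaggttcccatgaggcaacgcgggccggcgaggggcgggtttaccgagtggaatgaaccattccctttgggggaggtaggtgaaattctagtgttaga
The window of Mrpl47 held none of these words. That of Mrpl43 held the ETS word at positions -56 and -12, counted from the start, and that of Mrps11 held the YY1 word at -109 on the opposite strand.

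A promoter window was found for 67 of the 76 genes. The ETS word occurred in the windows of 25 of them (37.3%), against 18.4% of the 10702 tested genes with a window and 12.9% of 17491 protein-coding genes. The NRF1 word occurred in 12 (17.9%), against 10.6% and 7.17%. The YY1 word also occurred in 12 (17.9%), against 8.68% and 6.05%. In 0 windows did matches to different words overlap. The median log2 fold change of genes with and without the word was 0.34 and 0.48 for ETS, 0.61 and 0.36 for NRF1, and 0.08 and 0.46 for YY1. A match is a description of these letters only, and no test was made between those medians.

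Some of these genes begin near a gene on the opposite strand. A tested neighbour that begins within 1000 bases upstream on the other strand was found for 23 of the 67 genes with a window. How common such neighbours are among all tested genes was not counted. In 2 of these, Mrps11 and Mrpl46, the neighbour was itself a gene of the list, and they are left out of the counts of neighbours. The 21 other neighbours had a median log2 fold change of 0.329 with 16 positive, and the median of the 23 listed genes was 0.521. In 0 of the 21 did limma call a change. At an unadjusted limma p under 0.05, 2 were higher and 0 lower, against 7.58% and 11.7% of all tested genes. In 4 every ZPA array lay above every non-ZPA array (19.0%, against 7.77% of all tested genes). Ndufb5, a complex I subunit gene that begins 308 bases from Mrpl47, had a log2 fold change of 0.51 ± 0.31 (SE, limma adjusted p = 0.395). Twnk, the mitochondrial DNA helicase gene that begins 116 bases from Mrpl43, had 0.33 (limma adjusted p = 0.628). Mrps11 begins 42 bases from another gene of the mitochondrial ribosome, Mrpl46, which had 0.15.

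Among the other large-subunit genes the largest values came mainly from ZPA arrays 3 and 4. Mrpl57, a small protein of the large subunit, had 939 on ZPA array 1+2 and 3642 and 3852 on ZPA arrays 3 and 4, against 1042, 713, 718 and 635.5 on non-ZPA arrays 1 to 4. The groups overlapped, because ZPA array 1+2 lay below non-ZPA array 1. Its log2 fold change was 1.61 ± 0.46 (SE) and did not pass the test (limma adjusted p = 0.0842). Mrpl28, the counterpart of bacterial L28, had 1324, 4307 and 7074 on the ZPA arrays, against 983, 1276, 1681 and 1605 on the non-ZPA arrays. Its groups also overlapped, through ZPA array 1+2, and its value of 1.33 had an adjusted p of 0.158. Mrpl52, which bacteria lack, had 3453, 6928 and 14762 on the ZPA arrays, against 3234, 2477, 3269 and 2775 on the non-ZPA arrays. Its groups did not overlap, though ZPA array 1+2 stood only just above, and its value of 1.27 had an adjusted p of 0.121.

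**Figure D2:**
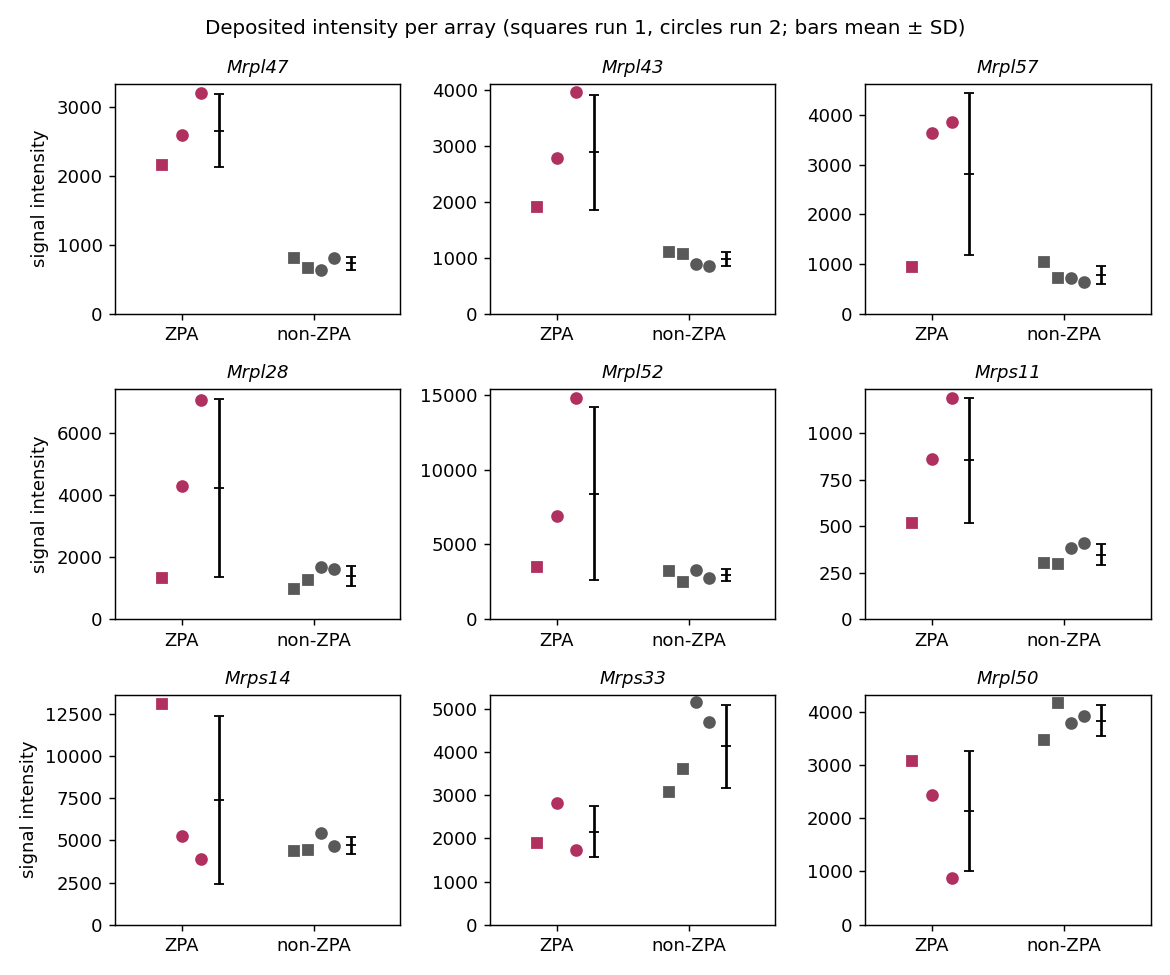
Intensity on each array for 9 genes, ZPA left of non-ZPA, with squares for run 1, circles for run 2 and bars for the mean and SD. Mrpl47 and Mrpl43 have separate groups in both runs, Mrpl57 is high only on ZPA arrays 3 and 4, Mrps14 only on ZPA array 1+2, and Mrps33 and Mrpl50 are lower on every ZPA array.

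Several genes below the threshold were nonetheless even across the ZPA arrays. Mrpl13, the counterpart of bacterial L13, had 4673, 4864 and 4454 on the ZPA arrays, against 2126, 1935, 1881 and 3188 on the non-ZPA arrays. Its log2 fold change was 1.06 (limma adjusted p = 0.0759), 1.20 in run 1 and 0.92 in run 2, and its groups did not overlap. Another of its 4 tested probe sets passed when every probe set was tested, with 1.28 and an adjusted p of 0.0382, while another had the opposite sign, at -1.01 (adjusted p = 0.294). Mrpl41 had 3249, 3777 and 4769 on the ZPA arrays, against 1735, 2153, 1638 and 1625 on the non-ZPA arrays. Its groups were apart, and its value of 1.12 had an adjusted p of 0.0610. Mrpl20, the counterpart of bacterial L20, had 1507, 1823 and 1706 on the ZPA arrays, against 1030, 607.7, 700.1 and 1190 on the non-ZPA arrays. Its value of 0.96 was nearly equal in both runs, 0.91 in run 1 and 0.94 in run 2, with an adjusted p of 0.131.

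The brightest large-subunit probe sets belonged to Mrpl39, Mrpl51 and Mrpl11. Mrpl39 had 11783, 8480 and 14212 on the ZPA arrays, against 11047, 11477, 11302 and 12766 on the non-ZPA arrays. Its groups overlapped, with a log2 fold change of -0.05. Its other tested probe set had -1.04 (limma adjusted p = 0.136), the mean of both gave -0.55 and quantile normalization -0.39, none past the test. Mrpl51 had 9586, 11819 and 15781 on the ZPA arrays, against 7573, 6377, 8232 and 8188 on the non-ZPA arrays. Its groups were apart, and its value of 0.68 had a limma adjusted p of 0.205.

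The stalk of the large subunit, which recruits translation factors, showed unlike values in its members. Mrpl12, the stalk protein itself, had 2103, 4536 and 6601 on the ZPA arrays, against 1837, 1776, 1899 and 2946 on the non-ZPA arrays. Its groups overlapped, because ZPA array 1+2 lay below non-ZPA array 4, and its log2 fold change of 0.94 had a limma adjusted p of 0.210. Mrpl11, which forms the stalk base, had 5573, 8863 and 14590 on the ZPA arrays, against 5895, 6792, 6922 and 6631 on the non-ZPA arrays. Its value was 0.45, and 2 of its 4 tested probe sets had this sign. Mrpl10, which anchors the stalk, had 583, 1236 and 1143 on the ZPA arrays, against 1227, 968, 1108 and 1243 on the non-ZPA arrays, with a value of -0.26. None of the 3 passed the test.

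In the small subunit 0 of 29 genes passed the test. At an unadjusted limma p under 0.05, 6 were higher and 1 lower, against 7.58% and 11.7% of all tested genes. Mrps11, the counterpart of bacterial S11 in the platform of the small subunit, had 514, 861 and 1188 on ZPA arrays 1+2, 3 and 4, against 302, 295, 381 and 407 on the non-ZPA arrays. Its groups did not overlap, and its log2 fold change of 1.20 had a limma adjusted p of 0.0932. Mrps31, a protein that bacteria lack, had 1059, 1745 and 1484 on the ZPA arrays, against 573, 686, 722 and 809.7 on the non-ZPA arrays. Its groups did not overlap either, and its value of 0.999 had an adjusted p of 0.106, with the same sign in 1 of its 2 tested probe sets. Mrps6, among the brightest small-subunit genes, had 4556, 4303 and 5907 on the ZPA arrays, against 3355, 3009, 3113 and 3427 on the non-ZPA arrays. Its groups were apart with a value of 0.60, which was 0.52 in run 1 and 0.62 in run 2 (limma adjusted p = 0.255).

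Mrps14, another bright small-subunit gene and the counterpart of bacterial S14, differed between the ZPA arrays. It had 13110 on ZPA array 1+2 and 5250 and 3880 on ZPA arrays 3 and 4, against 4364, 4409, 5426 and 4643 on the non-ZPA arrays. Only ZPA array 1+2 stood above the non-ZPA arrays. The difference was 1.58 in run 1 and -0.15 in run 2, and 1 of its 3 tested probe sets had the sign of its pooled value of 0.46.

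Some of the symbols do not name the subunit in which the protein sits. Mrps18a and Mrps30 belong to the large subunit, while Mrps18b and Mrps18c, relatives of Mrps18a, belong to the small one. Mrps18a had 630, 1607 and 3202 on the ZPA arrays, against 874, 764, 1136 and 1011 on the non-ZPA arrays, with a log2 fold change of 0.66 whose sign was negative in run 1 (-0.37) and positive in run 2 (1.07). Mrps18b had 974, 2185 and 1753 on the ZPA arrays, against 1363, 1102, 2263 and 1851 on the non-ZPA arrays, with a value of -0.03. Mrps18c had 3689.6, 3843 and 1979.5 on the ZPA arrays, against 2786, 3224, 3556 and 4143 on the non-ZPA arrays, with a value of -0.16. The groups of all 3 relatives overlapped. Mrps30 had 799, 1932 and 1361 on the ZPA arrays, against 1671, 1192, 1292 and 1576 on the non-ZPA arrays, with a value of -0.14. Mrps36, known from human and yeast cells as a subunit of the 2-oxoglutarate dehydrogenase complex of the citric acid cycle, had 1116, 728 and 984.5 on the ZPA arrays, against 363, 458, 539 and 523.5 on the non-ZPA arrays. Its groups did not overlap, and its value of 0.97 had a limma adjusted p of 0.118.

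Mrpl50 and Mrps33 were the 2 genes with every ZPA array below every non-ZPA array. Both encode proteins that bacterial ribosomes lack. Mrpl50 had 3078, 2430 and 884 on ZPA arrays 1+2, 3 and 4, against 3464, 4160, 3788 and 3922 on the non-ZPA arrays. Its log2 fold change was -1.02 ± 0.40 (SE, limma adjusted p = 0.181), and its other tested probe set had the opposite sign, 0.19. Mrps33 had 1886, 2831 and 1736 on the ZPA arrays, against 3064, 3616, 5152 and 4699 on the non-ZPA arrays. Its value was -0.94 ± 0.31 (SE, limma adjusted p = 0.125), -0.81 in run 1 and -1.14 in run 2.

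The next lowest log2 fold changes belonged to Mrpl42, Mrps23, Mrps2 and Mrpl18, none past the test and all with overlapping groups. Mrpl42 had 2647, 5147 and 1829.6 on the ZPA arrays, against 3967, 4235, 4004 and 4861 on the non-ZPA arrays, a value of -0.54. Mrps23 had 494, 972 and 593.5 on the ZPA arrays, against 1016, 729, 1000 and 883 on the non-ZPA arrays, a value of -0.44. Mrps2, the counterpart of bacterial S2, had 1954, 2942 and 2509.6 on the ZPA arrays, against 3068, 2863, 3571 and 2913 on the non-ZPA arrays, a value of -0.34. Mrpl18, the counterpart of bacterial L18, had 3113, 3989.7 and 2364 on the ZPA arrays, against 3306, 3179, 4334 and 4456 on the non-ZPA arrays, a value of -0.29. In each of these genes ZPA array 3 was the highest ZPA array and lay above at least 1 non-ZPA array.

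The large and small subunits had nearly the same median. It was 0.41 for the 47 Mrpl genes, with 35 positive and 12 negative, and 0.39 for the 29 Mrps genes, with 22 positive and 7 negative, a difference of 0.02. In the large subunit 14 genes (29.8%) had every ZPA array above every non-ZPA array, and in the small subunit 6 (20.7%). Over all tested genes the share was 7.77%. With genes placed by where their protein sits, the medians were 0.41 for 49 large-subunit and 0.38 for 26 small-subunit genes. The 43 genes classed here as having a bacterial counterpart had a median of 0.45, and the 32 classed as specific to mitochondria 0.38. Another classing of single genes would move these counts. Mrps28, Mrps18a and Mrps18b were classed as specific, and Mrps18c, a relative of the last 2, as having a counterpart. Without ZPA array 4 the difference between the subunits was 0.25, the highest when single arrays were left out. Members are not replicates, and no test was made of these differences.

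The 3 ZPA arrays did not give the same picture. The deviation of each gene from its own non-ZPA mean had a median of -0.13 on ZPA array 1+2, 0.60 on ZPA array 3 and 0.68 on ZPA array 4. On the non-ZPA arrays, which define that mean, it was between -0.13 and 0.16. ZPA array 1+2 therefore lay at the lower edge of the non-ZPA arrays, and the other ZPA arrays lay above all of them. Among tested genes whose mean level lay within the range of the 76, the median was -0.26, 0.02 and -0.12 on ZPA arrays 1+2, 3 and 4. The Mrpl median was -0.03 and the Mrps median -0.29 on ZPA array 1+2, 0.62 and 0.60 on ZPA array 3, and 0.67 and 0.77 on ZPA array 4. Counted by gene, 24, 57 and 52 of the 76 lay above every non-ZPA array on ZPA arrays 1+2, 3 and 4, where the shares over all tested genes were 35%, 26.9% and 38.2%. Below every non-ZPA array lay 31, 4 and 11 genes, against 35.6%, 31.5% and 33.6% of all tested genes.

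**Figure D3:**
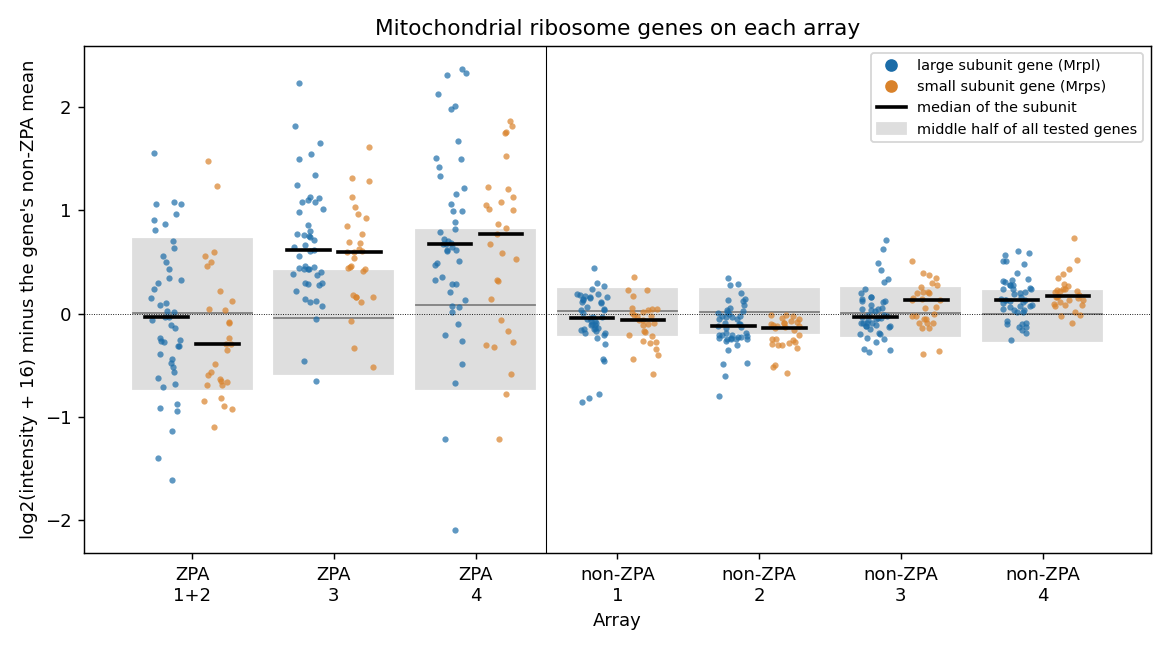
Each point is a gene's log2(intensity + 16) on an array minus its mean over the non-ZPA arrays, blue for the large and orange for the small subunit, with a black line at each subunit's median and a grey band for the interquartile range of all tested genes. The medians lie at 0.60 or above on ZPA arrays 3 and 4, and at -0.03 (large) and -0.29 (small) on ZPA array 1+2.

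The same split appeared between the runs. In run 1 the median difference was 0.04, with 40 of 76 genes positive. In run 2 it was 0.49, with 62 positive. Over all tested genes the medians were -0.018 in run 1 and -0.012 in run 2. Among tested genes whose mean level lay within the range of the 76, they were -0.28 and -0.044. The 76 genes thus had the higher median in both runs, by less against all tested genes in run 1. Taken gene by gene, 34 were positive in both runs, 8 negative in both, 28 negative in run 1 and positive in run 2, and 6 the reverse. Over all tested genes these counts were 3547, 3730, 3043 and 3021. Mrpl2, Mrpl22 and Mrpl4 were the lowest in run 1, at -1.42, -1.28 and -1.16, and had 0.27, 0.44 and 0.23 in run 2. Mrpl9 was among the opposite cases, with 1.20 in run 1 and -0.56 in run 2. Run 1 has a single distinct ZPA array, so that the run and that array cannot be told apart.

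**Figure D4:**
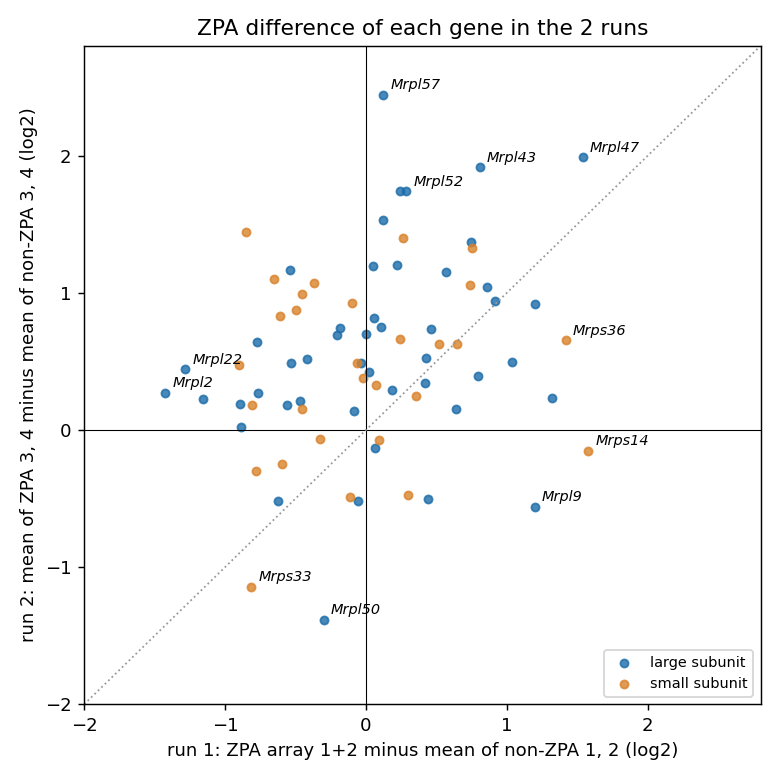
The log2 difference, ZPA minus non-ZPA, of each gene in run 1 on the horizontal axis and in run 2 on the vertical axis, blue for the large and orange for the small subunit. Most points lie above the horizontal zero line (62 of 76), while they spread to both sides of the vertical one (40 positive).

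Other sets of genes were set beside these for scale. Of all tested genes 0.427% were called higher, to be read beside the counts of calls below. The 46 tested cytosolic ribosomal protein genes had a median log2 fold change of 0.93, with 5 called higher and medians of 0.81 in run 1 and 0.86 in run 2. The 56 tested genes of respiratory chain complexes I to IV, many of whose partners the mitochondrial ribosome makes, had a median of 0.47, with 3 called higher and medians of 0.08 in run 1 and 0.55 in run 2. The respiratory chain genes thus had the lower median in run 1, as the mitochondrial ribosome genes did, and the cytosolic ribosome genes had like medians in both. The run 2 medians join unlike arrays. Median deviations from the non-ZPA mean on ZPA arrays 1+2, 3 and 4 were 0.68, 0.48 and 1.44 for the cytosolic ribosome genes. For the respiratory chain genes they were -0.03, 0.35 and 0.85. Among the 6995 tested genes whose mean level lay within the range of the 76, the median was -0.11, and in 7.12% every ZPA array lay above every non-ZPA array.

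The genes that serve the mitochondrial ribosome without being named for it mostly did not pass the test. Of its proteins under other symbols, 4 of 5 were tested and 0 called by limma (1 higher at an unadjusted p under 0.05), with a median of 0.25. Among them Gadd45gip1, a protein at the tunnel exit of the large subunit, had 622, 1043 and 1437 on the ZPA arrays, against 186, 301, 301 and 551 on the non-ZPA arrays. Its groups were apart, and its value of 1.60 ± 0.41 (SE) had a limma adjusted p of 0.0622. Of 27 genes for ribosome assembly and ribosomal RNA modification, 0 were called (4 higher and 0 lower at an unadjusted p under 0.05), with a median of 0.18. The fitted values ran from -1.03 for Ybey, an endoribonuclease, to 1.48 for Gtpbp6, a GTPase, but both had values near or below the filter level. Ybey had 18.02, 59 and 33.2 on the ZPA arrays, against 85.7, 117.7, 83.1 and 64.5 on the non-ZPA arrays. Gtpbp6 had 52.3, 433.5 and 546 on the ZPA arrays, against 30.6, 174, 76.8 and 73.4 on the non-ZPA arrays. Their sizes and rank therefore rest on dim values. Brighter were Trub2, a pseudouridine synthase, at 1.24 (limma adjusted p = 0.107) and Gtpbp10, a GTPase of large-subunit assembly, at -0.66 (limma adjusted p = 0.504). Gtpbp10 had 3971, 1586 and 664 on the ZPA arrays, against 2150, 2208, 2838 and 3162 on the non-ZPA arrays. Its ZPA array 1+2 thus lay above every non-ZPA array, and 1 of its 2 tested probe sets had the sign of its value. Over all tested genes, 7.58% were higher and 11.7% lower at an unadjusted limma p under 0.05, which gives the scale for the counts in these lists. Of 18 tested mitochondrial aminoacyl-tRNA synthetase genes, including the amidotransferase gene Gatc, 0 were called, with a median of -0.07. At that unadjusted p 0 were higher and 3 lower, and counts this small are no result about the list. Yars2 (0.57) and Gatc (0.53) were the highest and Hars2 (-1.49) and Wars2 (-1.23) the lowest, each with 1 ZPA array below the filter level, Hars2 at 38.5 on ZPA array 4 and Wars2 at 39.4 on ZPA array 1+2.

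Of the 78 tested genes in these further lists, 2 fell in ZPA cells and 0 rose. The share that fell, 2.56%, was near the 2.02% of all tested genes, so it is no result about the lists. Of 14 tested genes for translation factors and partners of the ribosome, with a median of -0.09, Oxa1l fell. It encodes the inner-membrane insertase that receives the ribosome's products. Oxa1l had 279.98, 1054 and 535 on the ZPA arrays, against 1634, 2016, 2081 and 1549 on the non-ZPA arrays. The groups did not overlap, and the log2 fold change was -1.70 ± 0.41 (SE, limma adjusted p = 0.0491). Its other probe set had the opposite sign. The call ended without ZPA array 4 and without any single non-ZPA array. It was made in 9 of 22 settings, among them run 1 alone, whose calls are not read here.

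Of 15 tested genes for mitochondrial DNA expression and its regulators, with a median of 0.03, Nrf1 fell. It encodes the transcription factor whose word was searched in the promoters. Nrf1 had 314, 352 and 169 on the ZPA arrays, against 1778, 1532, 1964 and 1544 on the non-ZPA arrays. The groups did not overlap. The log2 fold change was -2.60 ± 0.33 (SE, limma adjusted p = 0.00252), with the same sign in 3 of its 4 probe sets. With the mean of its probe sets in place of the brightest, the value was -0.78 and did not pass (adjusted p = 0.181).

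**Figure D5:**
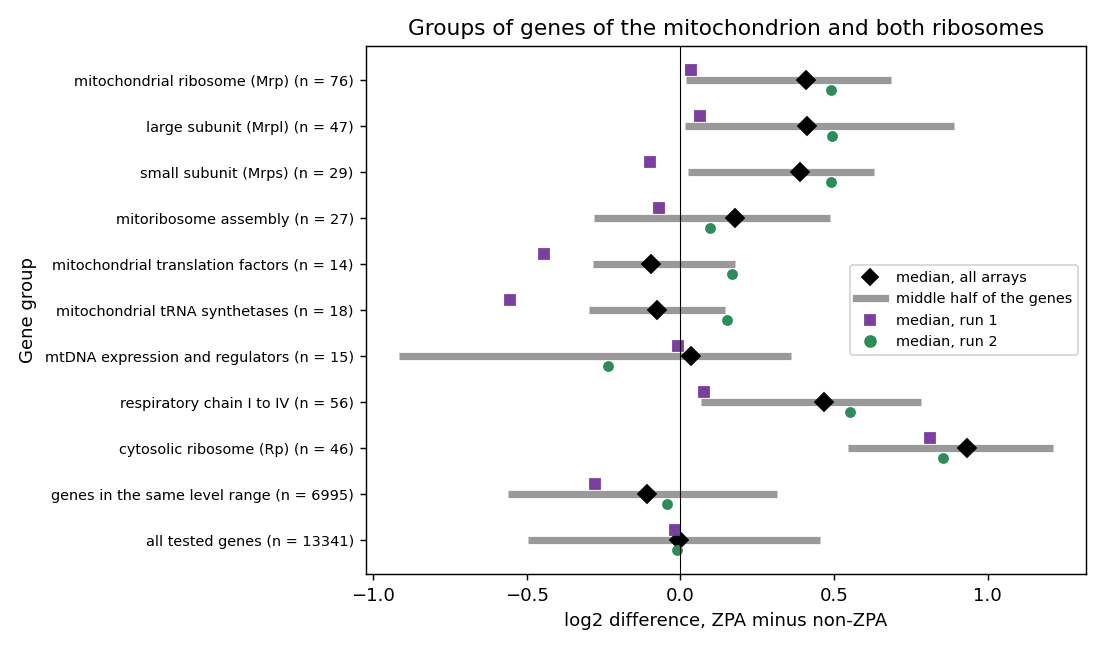
Median log2 difference, ZPA minus non-ZPA, of each gene set, with diamonds for all arrays, grey bars for the interquartile range over genes, squares for run 1 and circles for run 2. The mitochondrial ribosome set stands at 0.41, the cytosolic ribosome set at 0.93 and all tested genes at -0.0037.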

How the data were processed

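RNA of 8 sorted mouse limb bud samples, 4 ZPA and 4 non-ZPA, was amplified from 50 ng of total RNA, per the labels' protocols, and hybridised to Mouse430_2 arrays, per the headers of the deposited experiment files. The deposited values are linear signal intensities which the authors made with GCOS (version 1.3 in the submitters' processing notes). How the software summed up a probe set, and its detection calls, are not given in the sources used here. All the columns have a mean intensity of 500 without their lowest and highest 2% of values. Values below the filter level were treated as measured.

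The mean of ZPA replicates 1 and 2 was counted once. Nothing in the labels says that samples came from separate litters or sorts, so that p-values reflect the spread among these samples alone, and that spread may be technical. Probe sets above the 40th percentile of their array, an intensity of 50.8 to 91.9, in at least 4 of the 8 columns were tested, and 4 probe sets with several symbols, a member's among them, were left out. Of the 76 genes, 36 had more than 1 tested probe set, and in 15 of these all had the same sign. Of the chosen probe sets, 5 end in _x_at and 7 in _s_at, which can read related transcripts. Differences were tested on log2(intensity + 16), which understates the change of low genes, with limma 3.58.1 in R 4.3.3 (intensity trend, 2-sided, Benjamini-Hochberg over all genes, threshold 0.05), tested on simulated data. By the rule for named genes, values on every array are given for called genes, the 6 largest and the 6 smallest changes, the 3 brightest genes of each subunit, the Mrps18 relatives, Mrps30, Mrps36 and the stalk genes. Mrpl13, Mrpl41, Mrpl20, Mrps31 and Gadd45gip1 were added after their values were seen, as were the genes named for their difference between runs. The members and lists were chosen with earlier results of these data known. Alternatives were other pseudocounts, normalizations, filters, probe set rules, blocks, weights and left-out arrays.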

Additional observations from a re-analysis of the deposited data

Results flagged for a closer look

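In 3 of the 76 genes, 1 of the 4 non-ZPA arrays stood far from the other 3, with a gap of more than the 95% critical value of Dixon's test as a share of the range. Among the non-ZPA arrays, Mrpl12 had 1837, 1776, 1899 and 2946, with a gap of 0.868 of the range at array 4. Mrps34, a small-subunit gene, had 1009, 969.6, 993.2 and 1278, with a gap of 0.856, also at array 4. Mrpl22, the counterpart of bacterial L22 at the peptide tunnel, had 4430, 3166, 4408 and 4357, with a gap of 0.950 at array 2. This test marks about 5% of groups by chance. The ZPA group, with 3 distinct arrays, was too small for it.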

How the results depend on the processing

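Apart from run 1 alone, the 0 lower calls held under every alternative except the fit without ZPA array 1+2, with 1. The count of genes called higher was 2 as reported, where 0.427% of all tested genes were called higher. It was 5 in run 2 alone (0.914%) and 5 with ZPA replicates 1 and 2 counted separately (1.96%). With array weights it was 15 (2.88%), without the intensity trend 1 (0.232%) and at an adjusted p under 0.10 it was 6 (1.60%). Leaving out single arrays gave 1 to 23 higher and 0 to 1 lower, the 23 being without ZPA array 1+2. In run 1 alone the spread of the lone ZPA array had to be taken from the non-ZPA side, and its calls say little. The median log2 fold change of the 76 genes was 0.21 to 0.61, and the large minus small difference -0.059 to 0.25, when single arrays were left out, with -0.029 the lowest difference where ZPA array 1+2 stayed in.

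Of the named genes, 8 turned sign under some alternative, among them Mrps18a, Mrps14 and Mrpl11, which were at 0.66, 0.46 and 0.45 as reported. Mrps18b had 0.095 with quantile normalization, 0.027 with median centring and 0.34 with array weights. Mrpl39 had 0.0075 with median centring and 0.065 in run 1. Mrpl11 had -0.041 with the mean of its probe sets and -0.18 in run 1. Mrps18c had 0.30 in run 1 and 0.048 with array weights. Mrps18a had -0.37 in run 1, and Mrps14 had -0.15 in run 2. Mrps30 had 0.18 in run 2 and 0.25 with array weights, and Mrpl10 had 0.018 in run 2 and 0.016 with array weights. Across left-out arrays the ranges were -0.27 to 0.30 for Mrps18b (to 0.14 with ZPA array 1+2 in), -0.22 to 0.15 for Mrpl39, -0.33 to 0.15 for Mrps18c, -0.056 to 0.82 for Mrps14, -0.44 to 0.19 for Mrps30 and -0.46 to 0.071 for Mrpl10. The cause of these shifts was not tested.

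Whether replicate numbers pair the samples cannot be decided from so few arrays. The title numbers of same-numbered ZPA and non-ZPA samples follow each other directly. Deviations of same-numbered arrays correlated over genes at 0.0094 and 0.08 for ZPA array 1+2 with non-ZPA 1 and 2. The correlation was -0.02 for replicate 3 and -0.0075 for replicate 4. Over all pairs of a ZPA and a non-ZPA array it ran from -0.10 to 0.08. With the replicate number as a block and the shared ZPA array as replicate 1, 1 gene, Mrpl47, was called higher, where 0.367% of all tested genes were. With that array as replicate 2, 3 were called higher (Mrpl43, Mrpl47 and Mrpl57), a count given here without that share. The medians under the block were 0.36 and 0.39.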
